A study of Mus musculus with 23 samples.

Results

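Gad1, Gad2, Lhx6 and Pvalb are genes of inhibitory neurons, and their surroundings were examined in lists of genomic regions enriched for 2 histone marks in the mouse cortex. Each gene is represented by a window in the mm9 genome build: chr2:70340000-70490000 for Gad1, chr2:22430000-22600000 for Gad2, chr2:35890000-36010000 for Lhx6 and chr15:77990000-78070000 for Pvalb. Every deposited region that overlapped a window by at least 1 bp was taken, which gave 101 regions out of 334051 in the 8 full lists. Of these, 22 lay in the Gad1 window, 20 in the Gad2 window, 28 in the Lhx6 window and 31 in the Pvalb window.

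The marks were H3K27ac, an acetylation of histone H3 carried by active promoters and enhancers, and H3K4me2, a dimethylation carried by promoters and enhancers that may or may not be active. They were mapped by chromatin immunoprecipitation and sequencing in tissue of C57BL6J mice at postnatal day 56. The tissue was the anterior cingulate (ACC), retrosplenial (RSC), lateral entorhinal (LEC) and medial entorhinal (MEC) cortex. The labels name 2 libraries for every subregion and mark except MEC H3K4me2, which has 1, but a subregion and mark has a single full list. The labels do not say which animals each library came from. The lists therefore carry no spread between animals, no enrichment value and no depth, and no difference between subregions could be tested. MEC had the shortest full lists, with 22848 H3K27ac and 30064 H3K4me2 regions, where the other subregions had 41584 to 48266 and 46552 to 54419. The tissue came from sections of 500 µm, the labels name no cell type, and depth is unknown. Fewer inhibitory neurons, less of a mark per neuron and weaker detection in a subregion therefore cannot be told apart.

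Gad1 and Gad2 encode the glutamate decarboxylases, the enzymes that make the inhibitory transmitter GABA from glutamate, and mark cortical inhibitory neurons as a class. Lhx6 encodes a LIM-homeodomain transcription factor of interneurons born in the medial ganglionic eminence, needed for their migration and identity. Pvalb encodes parvalbumin, a calcium-binding protein of fast-spiking interneurons, one of the classes that depend on Lhx6. Inhibitory neurons are a minority of cortical cells, and promoters of genes in use usually carry both marks.

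Except for entries 2 and 3 of Lhx6, which are not printed, the proximal promoters of the members are shown as the genes' own start sequences. Whether a listed region covers them was not read, since they are RefSeq entries of GRCm38.p6, a later build than that of the lists, so their positions cannot be set against the mm9 positions given elsewhere. Each runs from 250 bases before to 50 bases after an annotated start, is written 5′ to 3′ and has its CpG dinucleotides in capitals.
Gad1, chr2:70561879-70562178, + strand: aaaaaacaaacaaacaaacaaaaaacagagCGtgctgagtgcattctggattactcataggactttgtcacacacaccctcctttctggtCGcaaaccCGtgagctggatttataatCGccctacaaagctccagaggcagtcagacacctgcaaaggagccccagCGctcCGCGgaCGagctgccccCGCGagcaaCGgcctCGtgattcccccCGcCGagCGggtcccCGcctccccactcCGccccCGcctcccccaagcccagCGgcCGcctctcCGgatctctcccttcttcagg
Gad2, chr2:22622077-22622376, + strand: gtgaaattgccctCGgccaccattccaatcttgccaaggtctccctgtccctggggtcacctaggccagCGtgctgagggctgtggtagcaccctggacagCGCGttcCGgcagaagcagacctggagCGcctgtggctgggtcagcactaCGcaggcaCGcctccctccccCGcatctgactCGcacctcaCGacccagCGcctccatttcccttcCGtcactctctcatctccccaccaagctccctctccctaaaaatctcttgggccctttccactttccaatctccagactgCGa
Lhx6, entry 1, chr2:36105359-36105658, - strand: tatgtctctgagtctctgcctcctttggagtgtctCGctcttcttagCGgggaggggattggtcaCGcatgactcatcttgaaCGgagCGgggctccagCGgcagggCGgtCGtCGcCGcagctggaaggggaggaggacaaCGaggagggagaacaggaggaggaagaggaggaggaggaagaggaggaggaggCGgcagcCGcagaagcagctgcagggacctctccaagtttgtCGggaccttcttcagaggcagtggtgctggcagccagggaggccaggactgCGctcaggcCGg
Pvalb, entry 1, chr15:78206351-78206650, - strand: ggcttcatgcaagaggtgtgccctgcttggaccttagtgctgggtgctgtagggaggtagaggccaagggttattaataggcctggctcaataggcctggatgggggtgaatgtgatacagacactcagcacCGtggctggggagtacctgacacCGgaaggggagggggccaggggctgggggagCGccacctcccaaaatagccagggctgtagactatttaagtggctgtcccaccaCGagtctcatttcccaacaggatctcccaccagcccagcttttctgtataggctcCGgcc
Pvalb, entry 2, chr15:78204188-78204487, - strand: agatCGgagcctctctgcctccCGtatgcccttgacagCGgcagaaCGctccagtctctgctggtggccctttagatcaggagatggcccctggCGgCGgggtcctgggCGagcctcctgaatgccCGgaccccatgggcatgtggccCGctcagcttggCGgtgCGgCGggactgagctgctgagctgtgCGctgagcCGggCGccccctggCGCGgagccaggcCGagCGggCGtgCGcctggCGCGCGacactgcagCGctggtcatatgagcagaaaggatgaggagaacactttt

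All 4 genes had entries, 7 in total, with 3 for Lhx6 and 2 for Pvalb. The Gad1 promoter held 21 CpGs, an observed over expected ratio of 0.849, and 83.1% of 32851 RefSeq promoters had a ratio as low or lower. Gad2 held 14 CpGs (ratio 0.543, at or above 60.7% of promoters), and the Lhx6 entries held 16, 17 and 11 (ratios 0.579, 0.791 and 0.643). Pvalb was split: entry 1 held 5 CpGs, a ratio of 0.199 under the median of 0.384 over all promoters, and entry 2 held 25, a ratio of 0.732. Motifs of exact letters were searched on both strands, and no motif contains another. TATAAA, the core of the TATA box, was in the Gad1 entry and entry 3 of Lhx6, and in 13.6% of all promoters. In both entries it lay on the strand opposite to the gene alone, as TTTATA in the gene's own direction. CCAAT was in Gad2 and in entries 1 and 3 of Lhx6 (37.4% of all), and GGGCGG, the GC box, in Gad1 and in entries 1 and 2 of Lhx6 (35.7%). TAATTA, a core read by many homeodomain factors (5.29%), and CACGTG, an E-box (7.15%), were in none of the 7 entries, and neither Pvalb entry held any of the 5 motifs.

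**Figure D1:**
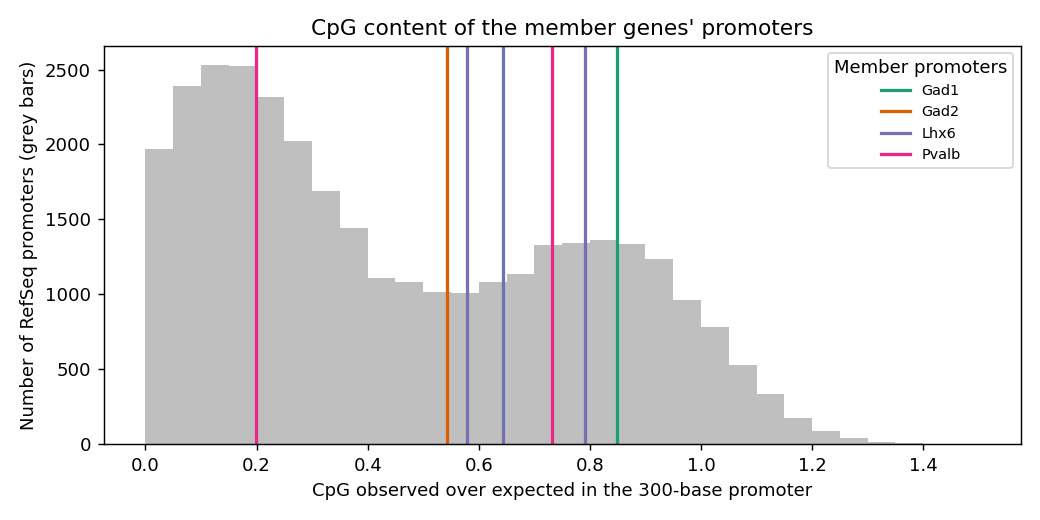
The number of RefSeq promoters (grey bars, vertical axis) at each CpG observed over expected ratio (horizontal axis), with the 7 entries of the 4 genes as coloured lines. Pvalb has an entry at 0.199 and an entry at 0.732, on either side of the median of 0.384, and Gad1 lies furthest right at 0.849.

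Each full list is divided into an enhancer list and the other, excluded regions; the sources used here do not give the rule of that division. Excluded regions made up 65 of the 101 regions in the windows, where they were 42.2% of all full-list regions in the series. All 4 windows held them, and their order along the chromosome was set beside the order of coding genes in RefSeq. There, Gad1 lies between Erich2 and Gorasp2, Gad2 between Myo3a and Apbb1ip, and Pvalb between Ift27 and Ncf4. Lhx6 follows Ndufa8 and Morn5 and precedes Rbm18 and Mrrf. No mm9 annotation was used, so a gene is tied to an excluded region by this order alone.

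Regions of both marks that overlapped were joined into 22 elements, of which 11 held an excluded region. Over the series, 53254 of 81411 elements joined in this way held none. The 10 that held an excluded H3K27ac region are lettered in their order along each window: Gad1 a to c, Gad2 a, Lhx6 a to d, and Pvalb a and b. Gad2 a was the only element of the Gad2 window with an excluded region, and Gad1 b the widest of the Gad1 window. Lhx6 b and c lay between the outer elements Lhx6 a and d, in the place that Lhx6 takes between Morn5 and Rbm18. Pvalb a came before Pvalb b, as Ift27, a gene of intraflagellar transport, comes before Pvalb. Order could not tell which of Lhx6 b and c, or of Gad1 b and c, held the start of the gene.

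**Figure D2:**
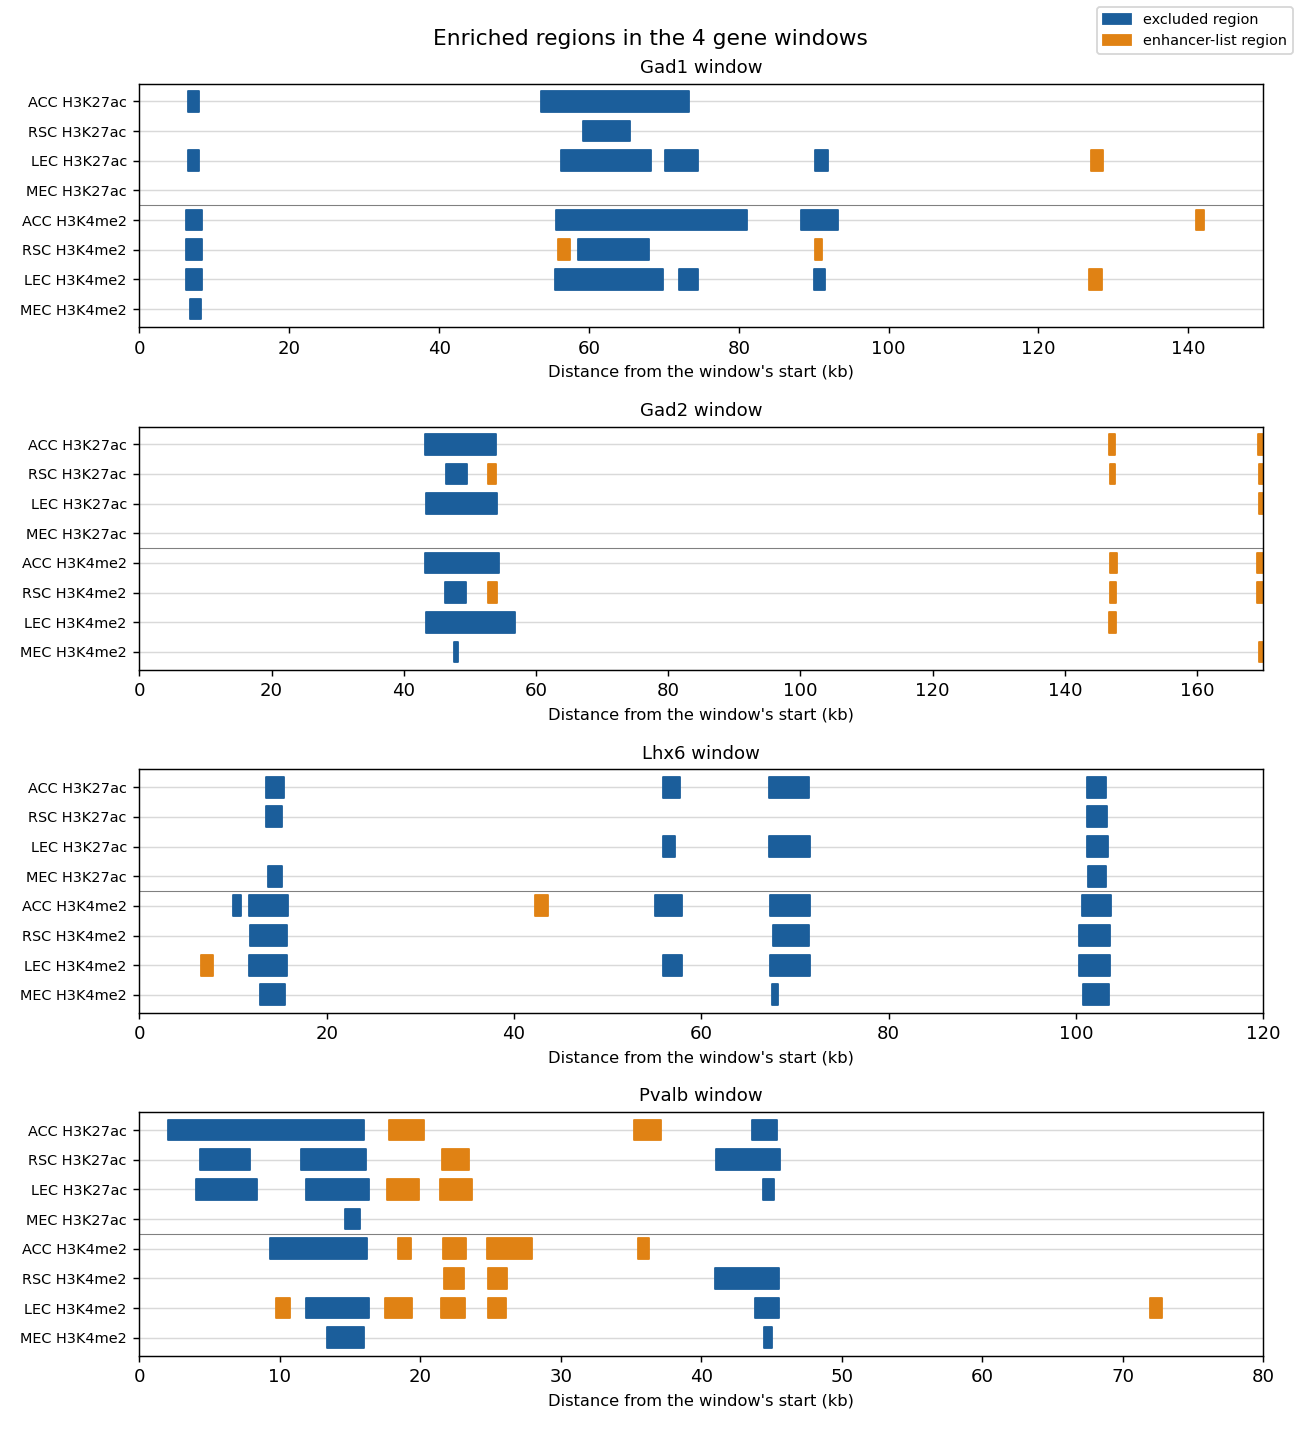
Position of every enriched region in the 4 windows (horizontal axis, distance from the window's start in kb) for each mark and subregion (rows), with excluded regions in blue and enhancer-list regions in orange. The MEC H3K27ac row is empty in the Gad1 and Gad2 windows, and the RSC H3K27ac row of the Lhx6 window holds only its 2 outer elements.

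The elements Gad1 b and Gad2 a had wide domains of both marks in ACC and LEC, narrower ones in RSC, and no H3K27ac region in MEC. Whether Gad1 b holds the start of Gad1 is not known. At Gad1 b, chr2:70393576-70421050, H3K27ac regions covered 19825 bp in ACC, 6400 bp in RSC, 16550 bp in LEC and 0 bp in MEC. H3K4me2 covered 25425 bp in ACC, 10925 bp in RSC, 17075 bp in LEC and 0 bp in MEC. The order of the subregions was the same for the marks, and MEC had neither. The ACC H3K4me2 region of 25425 bp was among the widest of its list, where 0.180% of regions were as wide or wider. That share was 0.770% for the widest LEC H3K4me2 region at Gad1 b (14425 bp) and 2.41% for the RSC one (9425 bp). For H3K27ac it was 1.33% in ACC (19825 bp), 2.93% in LEC (12025 bp) and 10.9% in RSC (6400 bp).

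At Gad2 a, chr2:22473201-22486800, H3K27ac covered 10775 bp in ACC, 4450 bp in RSC, 10800 bp in LEC and 0 bp in MEC. H3K4me2 covered 11150 bp in ACC, 4575 bp in RSC, 13500 bp in LEC and 625 bp in MEC. RSC was thus narrower than ACC and LEC at both Gad1 b and Gad2 a and in both marks. In RSC the bases at Gad2 a were split into an excluded region, chr2:22476351-22479550 for H3K27ac, and an enhancer-list region, chr2:22482676-22483925. The ACC and LEC regions ran across both. Over the series, 8.93% of H3K27ac and 5.80% of H3K4me2 enhancer-list regions overlapped an excluded region of another subregion in this way, and in the windows it was 1 of 12 and 4 of 24. MEC had a single short H3K4me2 region at Gad2 a, chr2:22477551-22478175, which lay inside the excluded RSC region.

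MEC listed no H3K27ac region across the whole Gad1 and Gad2 windows, and not at these elements alone. The windows held 2 and 3 H3K27ac regions in ACC, 1 and 4 in RSC, and 5 and 2 in LEC. An empty MEC stretch was not rare in the series: of 150 kb stretches with H3K27ac regions of ACC, RSC and LEC, 18.1% had no MEC region, and of 170 kb stretches 16.7%. Wide domains can be set beside a background of their own. MEC had no H3K27ac region at 2 of the 3 excluded ACC regions of at least 10 kb in the windows, those of Gad1 b and Gad2 a, where over the list the share was 19.4%. It had none at 2 of 2 such LEC regions, where the share over the list was 14.5%. The width of 10 kb was chosen after the values were seen, and the windows hold too few such regions to set a share against these backgrounds.

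The other Gad1 elements with excluded regions were small. Gad1 a, chr2:70346251-70348400, lies on the Erich2 side and had H3K4me2 in every subregion, 2125 bp in ACC, 2075 bp in RSC, 2100 bp in LEC and 1550 bp in MEC. Its H3K27ac was listed in ACC (1550 bp) and LEC (1400 bp) and not in RSC or MEC. Gad1 a thus held the only MEC region of the window. Gad1 c, chr2:70428276-70433200, had H3K4me2 in ACC (4925 bp), RSC (925 bp) and LEC (1525 bp), and H3K27ac in LEC alone (1775 bp).

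The elements in the place of Lhx6 had H3K27ac in ACC and LEC and none in RSC or MEC, while the outer elements on both sides had it in RSC and MEC. At Lhx6 c, chr2:35957226-35961650, H3K27ac covered 4325 bp in ACC and 4300 bp in LEC, and 0 bp in RSC and MEC. H3K4me2 covered 4350 bp in ACC, 3850 bp in RSC, 4325 bp in LEC and 625 bp in MEC. RSC therefore had an H3K4me2 region of 3850 bp without H3K27ac at Lhx6 c, where 19.6% of its list was as wide or wider. Lhx6 b, chr2:35945051-35947925, had both marks in ACC (1750 bp of H3K27ac and 2875 bp of H3K4me2) and LEC (1325 bp and 2050 bp), and neither mark in RSC or MEC.

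The outer elements of the Lhx6 window were listed in RSC and MEC. Lhx6 d, chr2:35990376-35993725, on the side of Rbm18 and of Mrrf, a factor of mitochondrial ribosome recycling, was the only element of the 4 windows with both marks in all 4 subregions. Its H3K27ac covered 1950 bp in ACC, 2150 bp in RSC, 2275 bp in LEC and 1925 bp in MEC. Lhx6 a, chr2:35901701-35905850, on the side of Ndufa8, a subunit of respiratory complex I, and of Morn5, had H3K27ac in ACC (1900 bp), RSC (1750 bp) and MEC (1500 bp), and none in LEC. Its H3K4me2 was listed in all 4 subregions, with 4100 bp in ACC, 4000 bp in RSC, 4100 bp in LEC and 2675 bp in MEC. The MEC lists were thus filled on both sides of Lhx6 and nearly empty at Lhx6 b and c.

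At the element in the place of Pvalb, RSC had the most of both marks. At Pvalb b, chr15:78031001-78035575, H3K27ac covered 1775 bp in ACC, 4525 bp in RSC, 750 bp in LEC and 0 bp in MEC. H3K4me2 covered 0 bp in ACC, 4550 bp in RSC, 1700 bp in LEC and 550 bp in MEC. RSC, narrower than ACC and LEC at Gad1 b and Gad2 a and without H3K27ac at Lhx6 b and c, was here the widest in both marks. ACC had H3K27ac with no H3K4me2 region, the reverse of RSC at Lhx6 c. The LEC H3K27ac region was close to the lower limit of its list, where 99.3% of regions were as wide or wider.

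On the Ift27 side, Pvalb a, chr15:77992026-78006375, had H3K27ac in all 4 subregions, with 13975 bp in ACC, 8200 bp in RSC, 8800 bp in LEC and 1050 bp in MEC. Its H3K4me2 covered 6950 bp in ACC, 0 bp in RSC, 5475 bp in LEC and 2650 bp in MEC. The ACC H3K27ac region of 13975 bp joined what were 2 regions each in RSC and LEC. RSC had thus no H3K4me2 region at Pvalb a, although it was widest at Pvalb b.

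**Figure D3:**
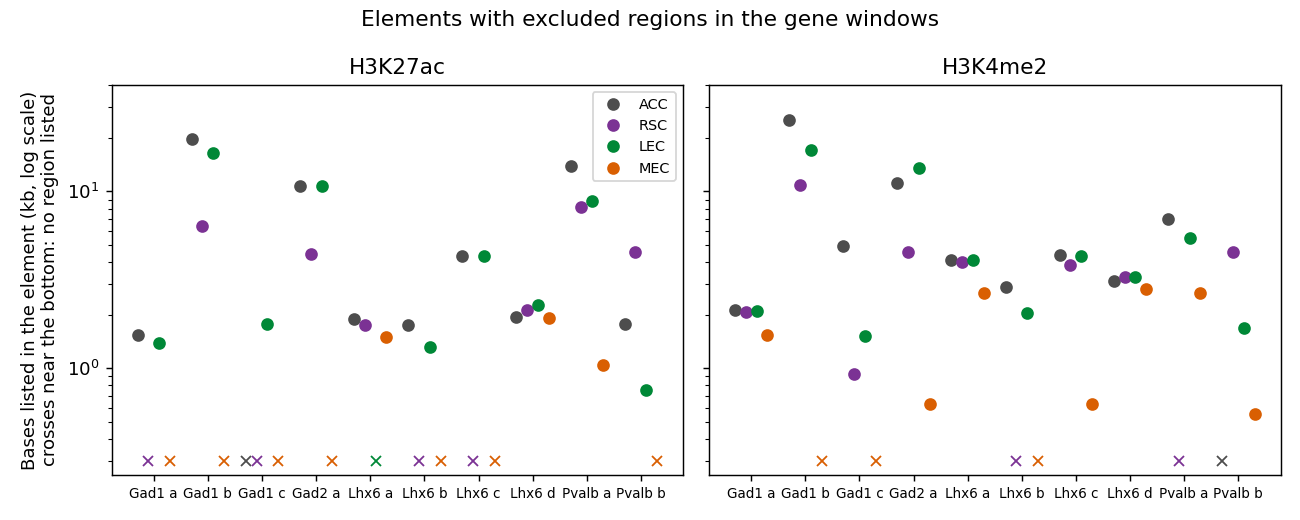
Bases listed (kb, log scale) at the 10 elements with an excluded H3K27ac region, lettered along each window, for H3K27ac (left) and H3K4me2 (right), 1 point per subregion and a cross where no region was listed. ACC and LEC lie above RSC at Gad1 b and Gad2 a, and RSC lies above them at Pvalb b. MEC has crosses for H3K27ac at all Gad1 and Gad2 elements, at Lhx6 b and c, and at Pvalb b.

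MEC listed H3K4me2 at more of these elements than H3K27ac. The MEC H3K4me2 list, of 1 labelled library, is also the longer, with 30064 regions where the H3K27ac list has 22848. MEC had an H3K4me2 region at Gad1 a, Gad2 a, Lhx6 c and Pvalb b, of 1550, 625, 625 and 550 bp, with no H3K27ac region at any of them. In its H3K4me2 list, 82.3% of regions were at least 625 bp wide and 89.6% at least 550 bp. Of its 8 H3K4me2 regions in the windows, 3 overlapped MEC H3K27ac, the Lhx6 a, Lhx6 d and Pvalb a regions, where the share over the MEC list was 49.2%. In ACC it was 12 of 18 in the windows and 65.8% of the list, in RSC 9 of 14 and 61.2%, and in LEC 13 of 19 and 64.5%. With 8 regions the exact 95% interval of the MEC share ran from 8.52% to 75.5%, which held the list share. In the other direction, H3K27ac regions of the windows overlapped H3K4me2 of their own subregion in 12 of 13 cases in ACC, 9 of 11 in RSC, 13 of 15 in LEC and 3 of 3 in MEC. Over the full H3K27ac lists the shares were 69.1%, 64.5%, 70.3% and 62.2% in the same order. The interval for LEC, 59.5% to 98.3%, held its list share, as did those of the other subregions. The intervals cover counting error only.

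The windows held 36 enhancer-list regions, 1 of them from MEC, where MEC gave 13.5% of all enhancer-list regions. Apart from 5 that lay in elements with excluded regions, they formed 11 elements. The Gad2 window had a pair of them beyond Gad2 a. The first, chr2:22576726-22577825, had both marks in ACC (925 bp of H3K27ac and 1050 bp of H3K4me2) and RSC (800 and 925 bp), and H3K4me2 alone in LEC (1025 bp). The second, chr2:22599026-22601275, crossed the edge of the window on the Apbb1ip side and had H3K27ac in ACC (1625 bp), RSC (975 bp) and LEC (1750 bp). Its H3K4me2 was listed in ACC (2250 bp), RSC (2075 bp) and MEC (1400 bp), and not in LEC. That is the 1 MEC enhancer-list region, wider than the median of 750 bp of its list.

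The Pvalb window held the most. Between Pvalb a and b, an element at chr15:78007501-78010250 had both marks in ACC (2475 bp of H3K27ac and 925 bp of H3K4me2) and LEC (2225 and 1875 bp). The next, chr15:78011426-78013650, had H3K27ac in RSC (1925 bp) and LEC (2225 bp), and H3K4me2 in ACC (1650 bp), RSC (1475 bp) and LEC (1675 bp). A further one, chr15:78014726-78017975, named after its values were seen, had H3K4me2 alone, 3250 bp in ACC, 1350 bp in RSC and 1325 bp in LEC. It was 1 of 6 elements, of 22, with H3K4me2 and no H3K27ac anywhere, where 25.9% of all such joined elements of the series were of this kind. None of the 22 had H3K27ac and no H3K4me2 anywhere, where the share over all was 18.6%. The other 5 were 850 to 1400 bp wide and had H3K4me2 in ACC or LEC alone, 1 of them in the Gad1 window, 3 in the Lhx6 window and 1 in the Pvalb window.

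Of the 22 elements, 2 had both marks in 1 subregion and nothing elsewhere, where the share over all elements was 2.73%. In LEC this was chr2:70466801-70468650, in the Gad1 window beyond Gad1 c, with 1650 bp of H3K27ac and 1675 bp of H3K4me2. In ACC it was chr15:78025226-78027150, next to Pvalb b, with 1925 bp of H3K27ac and 750 bp of H3K4me2. None of the 11 enhancer elements had regions of all 4 subregions in either mark, where the share over all such elements was 13.7%.

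Merged within a mark, the windows held 16 H3K27ac and 22 H3K4me2 elements. All 4 subregions carried 2 of the 16 H3K27ac elements (12.5%, exact 95% interval 1.55% to 38.3%), where 19.7% of all H3K27ac elements were so carried. For H3K4me2 it was 5 of 22 (22.7%, 7.82% to 45.4%), where the share over all was 21.7%. Both backgrounds lay within the intervals. MEC carried 3 of the 16 H3K27ac elements, against 13 for ACC, 13 for LEC and 9 for RSC, and 8 of the 22 H3K4me2 elements, against 18, 17 and 12. Over the series, MEC carried 33.1% of H3K27ac elements, ACC 75.1%, LEC 63.5% and RSC 62.7%, and for H3K4me2 the shares were 38.1%, 74.5%, 64.7% and 62.1%. MEC was thus also the lowest over the series.

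Among H3K27ac elements with excluded regions of ACC, RSC and LEC, MEC had none at 3 of 5 in the windows (Gad1 b, Gad2 a and Pvalb b), where 32.9% of all such elements lacked MEC. For H3K4me2 it was 1 of 6, Gad1 b, where the share over all was 19.2%. Among H3K27ac elements with excluded regions of ACC and LEC, RSC had none at 3 of 8 (Gad1 a, Lhx6 b and Lhx6 c), where the share over all was 21.4%. For H3K4me2 it was 2 of 9 (Lhx6 b and Pvalb a), where it was 17.9%. These counts are too small to be set apart from the backgrounds.

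Added over the windows, full-list H3K27ac regions covered 63.9 kb in ACC, 30.9 kb in RSC, 54.8 kb in LEC and 4.47 kb in MEC. For H3K4me2 it was 77.0 kb in ACC, 38.9 kb in RSC, 64.9 kb in LEC and 12.2 kb in MEC. Since the lists differ in length, the same bases were taken per Mb of their own list. That gave 351 bp of H3K27ac in ACC, 213 bp in RSC, 364 bp in LEC and 68.1 bp in MEC, and 472, 305, 461 and 218 bp of H3K4me2. MEC was lowest and RSC next on both scales, and LEC and ACC were close. MEC also had the shortest lists, so every list was cut to the length of the MEC list of its mark, keeping the widest regions. ACC then had 4 H3K27ac regions in the windows, RSC 5, LEC 6 and MEC 3, where the uncut lists had 13, 11, 15 and 3. The cut H3K27ac counts thus lay closer together, but MEC stayed lowest, and RSC had more regions than ACC. Relative to the length of their own list, the uncut counts were also lowest in MEC for both marks. For H3K4me2, ACC had 11, RSC 9, LEC 13 and MEC 8. Covered bases in the cut lists were 48.9 kb of H3K27ac in ACC, 22.3 kb in RSC, 40.5 kb in LEC and 4.47 kb in MEC. For H3K4me2 they were 69.2, 32.9, 57.9 and 12.2 kb in the same order. The cut keeps the widest regions of ACC, RSC and LEC, so their wide domains stay by construction. Their narrow regions are dropped by construction too, which lowers their counts, while the MEC list stays whole. Neither counts nor covered bases after the cut can therefore tell whether the MEC gap follows list length.

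**Figure D4:**
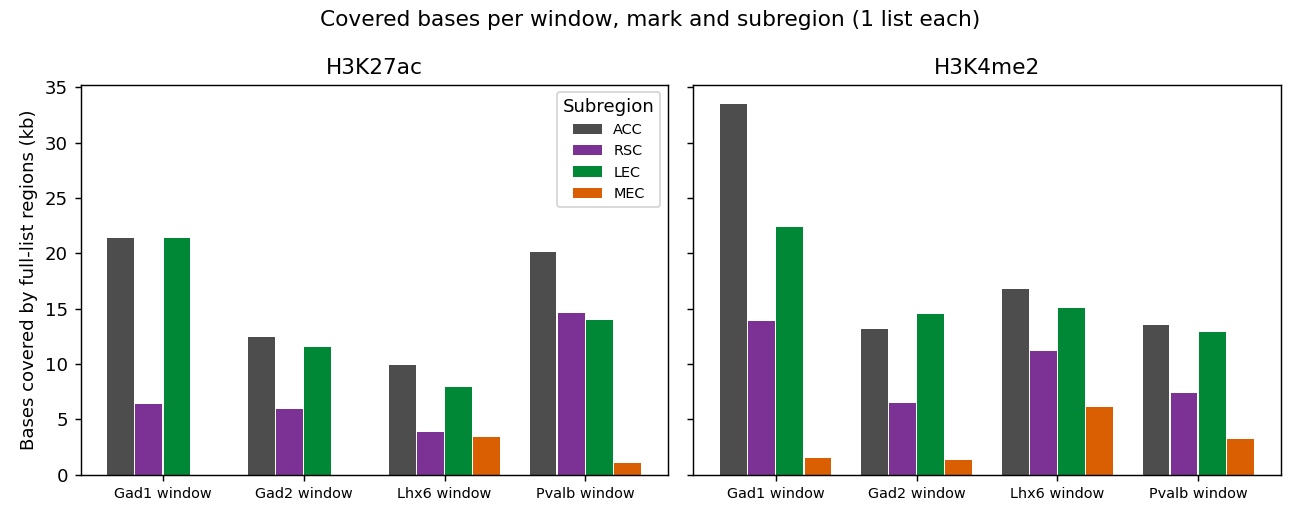
Bases covered by full-list regions (kb, vertical axis) in each gene window, for H3K27ac (left) and H3K4me2 (right), with 1 bar per subregion list and no error bar because a subregion has 1 list. The MEC bar is 0 for H3K27ac in the Gad1 and Gad2 windows, and the RSC bar is lower than the ACC bar in every window for both marks.

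Next to other stretches of the same width that held any region, ACC and LEC were above their median in all 4 windows and both marks. The windows were chosen around genes and the stretches were not. MEC had 0 kb of H3K27ac in the Gad1 and Gad2 windows, where its median was 4.65 and 4.90 kb. The Gad1 window had 21375 bp of H3K27ac in ACC, 6400 bp in RSC and 21375 bp in LEC, where the median over 150 kb stretches was 9.25, 7.88 and 8.43 kb. The Pvalb window had 20150 bp in ACC, 14650 bp in RSC, 14000 bp in LEC and 1050 bp in MEC, where the median over 80 kb stretches was 6.10, 5.28, 5.65 and 3.45 kb. RSC was thus under its H3K27ac median in the Gad1 window and above it in the Pvalb window. Much of the Pvalb window's H3K27ac lay at Pvalb a, on the Ift27 side, with 13975 bp in ACC, 8200 bp in RSC and 8800 bp in LEC. At Pvalb b alone RSC had 4525 bp. The Gad2 window had 12475 bp in ACC, 5950 bp in RSC and 11500 bp in LEC, where the median over 170 kb stretches was 10.2, 8.53 and 9.18 kb. The Lhx6 window had 9925 bp in ACC, 3900 bp in RSC, 7900 bp in LEC and 3425 bp in MEC, where the median over 120 kb stretches was 7.78, 6.75, 7.17 and 4.12 kb. All of the MEC bases there lay at Lhx6 a and d. For H3K4me2, RSC was above its median at Gad1 (13.9 kb, where the median was 7.62 kb), Lhx6 (11.2 and 6.35 kb) and Pvalb (7.38 and 4.75 kb), and under it at Gad2 (6.47 and 8.50 kb). MEC was above its H3K4me2 median in the Lhx6 window (6.12 and 3.23 kb) and the Pvalb window (3.20 and 2.58 kb). It was under it at Gad1 (1.55 and 3.75 kb) and Gad2 (1.32 and 4.10 kb). Most of the MEC bases above lay on the side of other genes, 2675 and 2825 bp at Lhx6 a and d and 2650 bp at Pvalb a. The RSC H3K4me2 bases in the Lhx6 window likewise included 4000 and 3300 bp at Lhx6 a and d. The marks thus stood on different sides of the median for RSC at Gad1 and Lhx6 and for MEC at Lhx6 and Pvalb.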

How the data were processed

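The series holds 23 labelled libraries: H3K27ac, H3K4me2 and input from 4 cortical subregions. The authors deposited 17 region lists and 16 were used; the other repeats the MEC H3K27ac enhancer list. The deposited lists give start and end positions on a 25 bp grid. Bowtie 1.1.1, bedtools 2.19.0 and the build mm9 are named, per the submitters' processing notes; no source used here gives the peak caller or how libraries were combined. The names of the deposited lists call the regions reproducible and carry a number that looks like a cutoff, without saying what either means, and the MEC H3K4me2 list, of 1 labelled library, is named alike. A deposited column of widths (in bp) equals the end minus the start and was not used. Input lists, reads and depth were not analysed here.

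Windows, members and motifs were chosen with earlier results of these data known. Regions were counted and merged at an overlap of at least 1 bp in Python 3.11.15 (with scipy 1.17.1, and matplotlib 3.10.9 for plots), and the merging was tested on simulated lists. Shares have exact binomial 95% intervals, which cover counting error only. Named regions were the elements with an excluded H3K27ac region, the 5 widest H3K27ac enhancer elements of a window, elements with both marks in 1 subregion alone, and enhancer elements of all 4 subregions. Backgrounds were taken over whole lists, or over stretches of a window's width laid end to end between the first and last region of a chromosome. Other widths, overlaps, list lengths and windows were tried.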

Additional observations from a re-analysis of the deposited data

How the results depend on the processing

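The counts of regions follow the chosen windows and the length of the lists. Of 77 alternative values, 51 kept within 1.5 times the main count or within the main share's interval and 26 moved. With windows 50 kb wider on each side, H3K27ac regions numbered 27, 20, 26 and 7 in ACC, RSC, LEC and MEC, and ACC, LEC and MEC had 31, 29 and 17 H3K4me2 regions. With windows 20 kb narrower on each side, the same 4 lists of H3K27ac held 8, 6, 9 and 0, and those 3 lists of H3K4me2 held 10, 11 and 3. With lists cut to the MEC length, keeping the widest regions, ACC, RSC and LEC had 4, 5 and 6 H3K27ac regions, and ACC and RSC had 11 and 9 H3K4me2 regions. With regions of at least 1000 bp alone, MEC H3K4me2 had 5 regions, 4 of them excluded, since those at Gad2 a, Lhx6 c and Pvalb b were shorter. In the enhancer lists, 0% of elements of either mark came from all 4 subregions (0 of 7 for H3K27ac and 0 of 15 for H3K4me2). There, 100% of H3K27ac regions carried H3K4me2 in ACC and in RSC and 75.0% in LEC, each out of 4 regions. MEC gave no value. Without MEC, 37.5% of H3K27ac elements (6 of 16) and 45.5% of H3K4me2 elements (10 of 22) came from all 3 other subregions. Shares over the whole series were not taken for these settings, so the values describe the windows alone. No paired analysis was possible because the lists give no values per library, and no replicate could be left out. Depth is unknown, so a region missing from a list was not detected at its threshold and cannot be called absent.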

Other observations

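Some bases were listed in an enhancer region in one subregion and in an excluded region in another. The 5 enhancer-list regions of the windows that overlapped an excluded region of another subregion all lay inside the excluded region, and 4 of them were RSC regions at Gad1 or Gad2. The fifth was an LEC H3K4me2 region of 950 bp at Pvalb a. At Gad1 c, RSC listed chr2:70430176-70431100 as an enhancer of 925 bp, while the LEC region around it, chr2:70430001-70431525 (1525 bp), was left out of the LEC enhancer list. Enhancer counts in RSC therefore include bases that ACC or LEC hold in excluded regions.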
